A study of Mus musculus with 2 samples.

Results

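Bidirectional promoters lie between the starts of head-to-head genes, which are transcribed away from each other on opposite strands. Here a pair was 2 protein-coding genes of GENCODE vM21 on mm10 whose gene 5′ ends lay at most 1 kb apart without overlapping. Its regions were merged overlapping DNase peaks that held a peak of both libraries and overlapped the sequence between the 5′ ends or 200 bp on either side. The annotation held 755 such pairs with 1489 genes, 6.79% of 21938 protein-coding genes. The peaks gave 863 regions at these pairs, 1.31% of the 65778 regions shared by both libraries. The distance between the 5′ ends had a median of 129 bp and quartiles of 66.5 and 240 bp.

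DNase-seq records where the enzyme DNase I cuts chromatin in nuclei, so that open DNA gives peaks and a bound protein can leave a short uncut stretch, a footprint. The mice were adult males of the F1 hybrid B6CASTF1/J, 18 to 20 months old, and the tissue was the adrenal gland. Both libraries formed 1 group, labelled biological replicates 1 and 2, with separate tissue samples and 1 donor entry, so the labels do not say whether they came from separate animals. No treatment or edited allele is given for either, and with 1 group there was no contrast of conditions and no test.

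Promoters of this kind let neighbouring genes use a common open stretch, in which RNA polymerase II starts in both directions. They are usually rich in CpG dinucleotides, poor in TATA boxes, and common among housekeeping genes of DNA repair, mitochondria and chromatin. NRF1, the CCAAT-binding factor NFY, ETS proteins, YY1 and SP/KLF proteins are known to bind many CpG-rich promoters.

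The sequences that carry the main patterns are those between the 5′ ends, read from the GRCm38 reference on the plus strand, 5′ to 3′, from the base after the minus-strand gene's 5′ end to the base before the plus-strand gene's 5′ end. Capitals mark matches to the consensus letters of a factor. The letters were CGCNTGCG for NRF1, ACCAATC or ACCAATG for NFY, with GCCAATC or GCCAATG as its other forms, CCGGAAGT for ETS, AAGATGGCG for YY1, GGGGCGGGG for SP/KLF, TGACGTCA for CRE (the site of CREB and ATF proteins), CTCGCGAG for ZBTB33, ACTACAATT for ZNF143, TATAAAA or TATAAAG for TATA, CCAAGGTCA for NR5A1, TGANTCA for AP-1 and CACGTG for the E-box, with CTCF searched by name. Both strands were searched, and matches of different factors were allowed to overlap. A match describes letters and does not show binding. The spans were chosen after their values were seen.

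The first 5 belong to pairs of very tall regions and hold matches that lay under a footprint of both libraries. Fbh1/Ankrd16 has NFY matches at bases 45 to 51 and 98 to 104 of the span, Dcaf6/Mpc2 has a ZBTB33 match, Dnajb4/Fubp1 an NFY match near the Fubp1 end, Apaf1/Ikbip an NRF1 and an SP/KLF match, and Gtf3c1/D430042O09Rik a CRE match. The NFY match also marked in the last of them lay under no footprint.
Fbh1/Ankrd16 (chr2:11777583-11777875): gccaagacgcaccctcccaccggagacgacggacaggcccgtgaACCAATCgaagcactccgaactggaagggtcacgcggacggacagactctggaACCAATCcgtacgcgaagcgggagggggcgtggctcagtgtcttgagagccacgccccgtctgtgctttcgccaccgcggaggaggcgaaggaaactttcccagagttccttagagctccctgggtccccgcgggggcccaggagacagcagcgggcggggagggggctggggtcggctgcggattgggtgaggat
Dcaf6/Mpc2 (chr1:165460476-165460636): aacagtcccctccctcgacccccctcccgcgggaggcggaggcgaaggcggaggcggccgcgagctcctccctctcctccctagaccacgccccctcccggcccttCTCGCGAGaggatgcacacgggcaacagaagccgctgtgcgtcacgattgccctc
Dnajb4/Fubp1 (chr3:152210303-152210421): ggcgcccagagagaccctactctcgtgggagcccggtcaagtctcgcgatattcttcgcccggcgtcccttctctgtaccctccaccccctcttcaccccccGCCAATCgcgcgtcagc
Apaf1/Ikbip (chr10:91082771-91082939): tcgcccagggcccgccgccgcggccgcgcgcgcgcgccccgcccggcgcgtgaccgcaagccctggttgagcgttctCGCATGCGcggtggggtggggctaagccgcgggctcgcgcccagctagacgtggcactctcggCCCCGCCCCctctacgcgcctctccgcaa
Gtf3c1/D430042O09Rik (chr7:125707781-125707887): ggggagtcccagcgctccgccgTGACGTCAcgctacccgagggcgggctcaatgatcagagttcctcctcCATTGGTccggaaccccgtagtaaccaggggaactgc

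A second set belongs to enzymes of cholesterol synthesis, the precursor of adrenal steroids. In Nadsyn1/Dhcr7 both SP/KLF matches and the NRF1 match lay under a footprint of both libraries. The NR5A1 match lay past the end of the pair's tallest region and under a footprint of neither library. In Mmab/Mvk the NFY match at bases 141 to 147 lay under a footprint of both libraries and that at 194 to 200 under none.
Nadsyn1/Dhcr7 (chr7:143822850-143823144): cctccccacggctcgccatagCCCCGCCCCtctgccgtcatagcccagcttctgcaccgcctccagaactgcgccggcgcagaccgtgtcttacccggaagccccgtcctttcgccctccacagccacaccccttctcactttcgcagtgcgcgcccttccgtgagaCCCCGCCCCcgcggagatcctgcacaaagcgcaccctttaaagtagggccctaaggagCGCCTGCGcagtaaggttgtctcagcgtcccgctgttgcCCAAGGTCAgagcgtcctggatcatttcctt
Mmab/Mvk (chr5:114444061-114444268): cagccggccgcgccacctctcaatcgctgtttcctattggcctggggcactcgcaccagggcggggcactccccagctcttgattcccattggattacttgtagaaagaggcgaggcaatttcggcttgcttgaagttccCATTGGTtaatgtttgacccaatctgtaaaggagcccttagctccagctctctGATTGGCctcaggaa

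Another set shows well-known pairs and a histone pair with lower regions. In Brca1/Nbr1 and Mrps12/Sars2 none of the NFY matches lay under a footprint of either library. In the histone pair Hist2h2ac/Hist2h2be the TATA match at bases 36 to 42 lay under a footprint of both libraries, the NFY match at 78 to 84 under a footprint of replicate 2, and the NFY match at 161 to 167 under none. Col4a4/Col4a3 held no match to any of the 13 motifs.
Brca1/Nbr1 (chr11:101551956-101552148): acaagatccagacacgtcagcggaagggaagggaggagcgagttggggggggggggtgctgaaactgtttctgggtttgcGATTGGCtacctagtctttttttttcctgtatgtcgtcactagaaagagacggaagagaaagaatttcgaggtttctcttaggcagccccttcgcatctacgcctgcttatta
Mrps12/Sars2 (chr7:28741821-28741991): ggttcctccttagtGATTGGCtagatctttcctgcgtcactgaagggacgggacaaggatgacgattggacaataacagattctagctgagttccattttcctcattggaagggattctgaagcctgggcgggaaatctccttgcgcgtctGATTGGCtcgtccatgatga
Hist2h2ac/Hist2h2be (chr3:96220881-96221118): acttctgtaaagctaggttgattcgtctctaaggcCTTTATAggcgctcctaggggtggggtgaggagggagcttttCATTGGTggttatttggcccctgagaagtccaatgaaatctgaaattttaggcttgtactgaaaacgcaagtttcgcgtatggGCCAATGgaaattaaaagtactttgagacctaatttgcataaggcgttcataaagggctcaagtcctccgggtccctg
Col4a4/Col4a3 (chr1:82586850-82586920): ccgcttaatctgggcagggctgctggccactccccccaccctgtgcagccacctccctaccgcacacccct

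Finally, Rnf151/Rps2 and Dgcr2/Tssk2 had no shared region. Their spans held 1 CpG dinucleotide in 52 bp and 2 in 74 bp, against 27 in 293 bp in Fbh1/Ankrd16 and 30 in 169 bp in Apaf1/Ikbip. The open pair Col4a4/Col4a3 also held only 2, in 71 bp.
Rnf151/Rps2 (chr17:24718064-24718115): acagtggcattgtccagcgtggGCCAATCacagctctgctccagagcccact
Dgcr2/Tssk2 (chr16:17898563-17898636): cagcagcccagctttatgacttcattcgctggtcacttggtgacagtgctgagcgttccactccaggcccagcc

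The deposited lists held 98630 peaks in replicate 1 and 118249 in replicate 2. Heights, the authors' own peak signal, whose scaling is not described in the files, were whole multiples of 0.00531 and 0.0075, so a median pair region of replicate 1 was 903 such steps high and of replicate 2 631 steps. Whether a step is 1 cut is not stated, and total reads are not given in the files used here. Among adrenal cortex markers, 5 of 10 had a shared region within 200 bp of an annotated start (Nr5a1, Star, Cyp11b1, Scarb1 and Fdx1), and no shared region was listed there for Cyp11a1, Cyp11b2, Cyp21a1, Hsd3b1 or Mc2r. The counts were 2 of 8 for chromaffin cells (Chga and Slc18a1), 4 of 5 each for endothelium and adipocytes, 1 of 5 for kidney epithelium, and 0 of 5 each for hepatocytes and macrophages. The share of all protein-coding genes by this rule was not counted, so these small counts do not show which cells gave the regions. By gene 5′ end alone, the share was 52% for the unpaired genes described below.

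Nearly all pairs were open. A shared region was found at 714 of 755 pairs (94.6%), and 1371 of 1489 pair genes (92.1%) had a shared region within 200 bp of the gene 5′ end. By the same margin the count was 10176 of 19578 (52%) for the protein-coding genes that were neither in such a pair nor in a head-to-head pair with overlapping 5′ ends. The counts are not fully alike, because 1 region can count for both genes of a close pair. The sets also differ in the genes they hold, and none of 1093 olfactory receptor genes was in such a pair. The listed regions came from bulk tissue, in which a site open in fewer cells and a site less often cut in each cell cannot be told apart. A single region lay at 554 pairs, 2 at 148, 3 at 11 and 4 at 1. Both 5′ ends fell inside 1 region at 489 pairs, 68.5% of the open ones.

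The profile over pair midpoints showed how far the openness reached. At the bin starting the plus-strand side of the midpoint, 90.6% of pair positions in replicate 1 and 92.6% in replicate 2 were listed by the authors at a false discovery rate (FDR) under 0.05. At unpaired 5′ ends the figures were 50.4% and 51.6%. The flanks differed in shape: 490 bp upstream of unpaired 5′ ends 13.1% and 17.9% were listed, and 490 bp downstream 34.6% and 38.3%. Around pairs the sides were alike, with 55.4% and 65.9% on the minus-strand gene's side and 57.6% and 65.7% on the other. The sides of a pair are set only by the strand of the genome, so even sides in the average do not show that single pairs are even. Footprints covered 29.2% and 32.7% of positions just beside the pair midpoint, against 13.2% and 14.5% just upstream of an unpaired 5′ end. All unpaired 5′ ends enter these percentages, open or not.

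**Figure D1:**
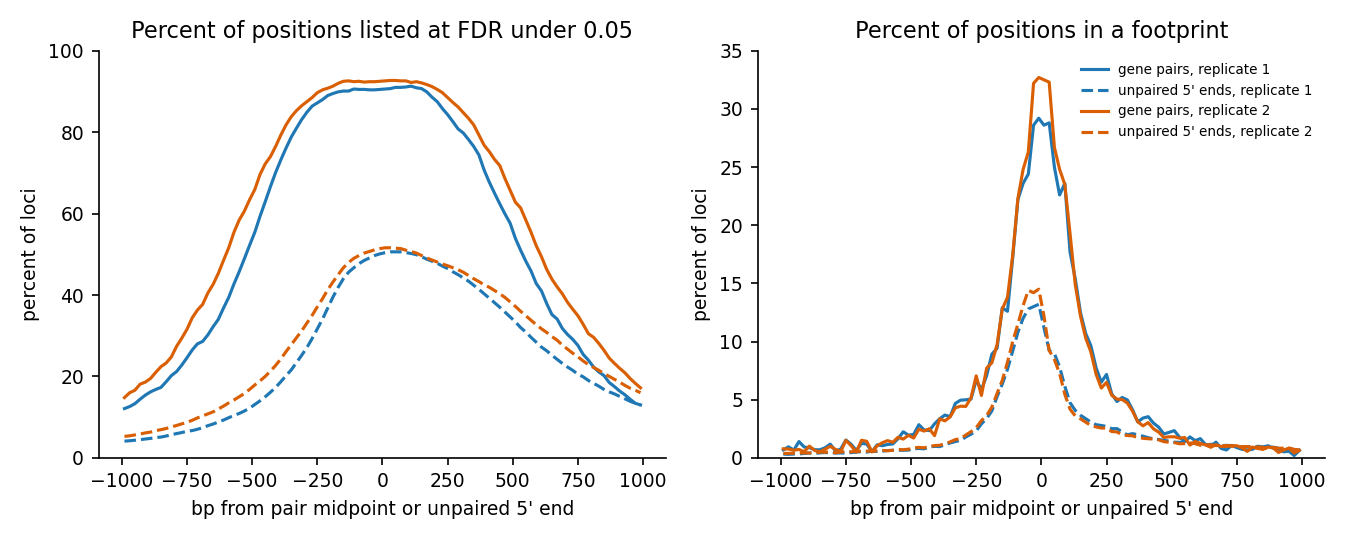
Percent of loci with a position listed at an FDR under 0.05 (left) and within a footprint (right), in 20 bp bins from 1000 bp before to 1000 bp after the midpoint of 755 gene pairs (solid) or the 5′ end of 19578 unpaired genes (dashed, downstream to the right), for each library. Pairs, whose sides are set only by the strand of the genome, give a symmetrical plateau that reaches 91.3% and 92.7% in replicates 1 and 2. Unpaired 5′ ends give an asymmetrical one that reaches 50.6% and 51.6%.

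Regions of pairs were taller than those of single promoters. Their median height was 4.79 in replicate 1 and 4.73 in replicate 2, with 10th to 90th percentiles of 1.64 to 8.27 and 1.74 to 7.98. The 11032 regions at unpaired 5′ ends had medians of 3.25 and 3.20, and the 53326 shared regions outside these promoters and outside overlapping pairs had medians of 0.908 and 1.13. The ratio of the pair to the unpaired median was 1.47 in replicate 1 and 1.48 in replicate 2, a log2 difference of 0.56 in both, so the libraries differed from each other by much less than the sets did. Of pair regions, 53.3% were among the tallest 10% of all shared regions by mean height, against 33.1% of unpaired promoter regions. Regions are not replicates, and no test was made over them.

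**Figure D2:**
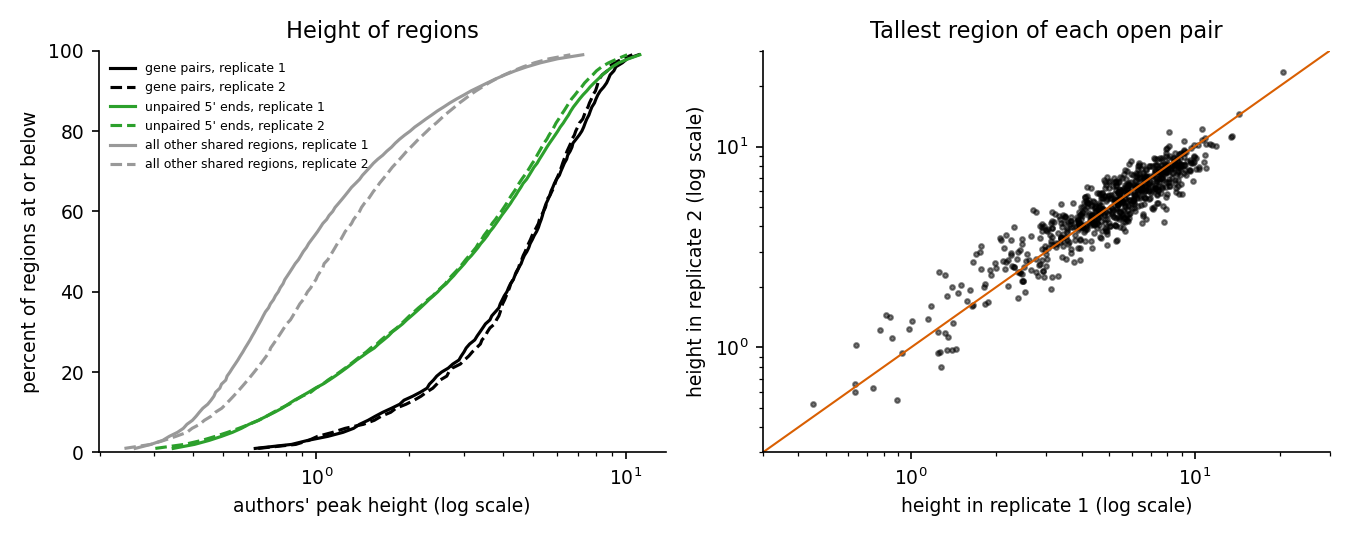
Left, cumulative percent of regions by the authors' peak height (log scale) for 863 pair regions, 11032 regions of unpaired 5′ ends and 53326 other shared regions in each library. Right, height in replicate 2 against replicate 1 (both log scale) for the tallest region of each of 714 open pairs, with the line of equal height. At the median, pair regions lie to the right of both other sets in each library, while in replicate 1 the pair and unpaired curves meet at the top, with 99th percentiles of 11.0 and 11.1.

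The median region was 280 bp wide both at pairs and at unpaired 5′ ends, while the 90th percentile of width was 460 bp at pairs and 580 bp at unpaired 5′ ends. Footprints were slightly denser at pairs, with 18.4 and 18.2 per kb in replicates 1 and 2 against 15.0 and 15.6, and the median region held 5 footprints in each library against 4. No footprint of either library was listed in 13 pair regions. GC content was lower at pairs (63.7% against 65.7% over 300 bp), while the observed to expected ratio of CpG was higher (0.856 against 0.815, and 0.297 for other shared regions). Within quartiles of that ratio the pair regions were the taller set in all 4, in both libraries. In the lowest quartile the medians were 2.46 and 3.0 at pairs against 1.46 and 1.63 at unpaired 5′ ends, and in the highest 5.53 and 5.31 against 4.47 and 3.96.

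How many regions a pair had followed the distance between its 5′ ends. Of the 313 pairs at most 100 bp apart, 97.1% were open, and 95.4% of the open ones had 1 region over both 5′ ends. That share was 74.9% over 100 and up to 200 bp, 44.7% up to 300 bp, 21.9% up to 500 bp and 0% of 61 open pairs over 500 bp. Pairs with 2 or more regions went the other way, from 10.2% in the closest class to 68.9% in the widest. Median height was 5.27 and 5.05 (replicates 1 and 2) in the closest class and 3.46 and 3.62 in the widest, where the median CpG ratio was 0.738 against 0.908. These medians are over all regions of a class, not the tallest of each pair. The closest class had 328 regions at 304 open pairs and the widest 109 at 61, so the widest includes more second regions. With a median width of 280 bp, most regions were too narrow to reach both ends of the pairs in the wider classes. The stretch searched, the span with 200 bp on either side, also grew with the distance, which left more room for several regions.

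**Figure D3:**
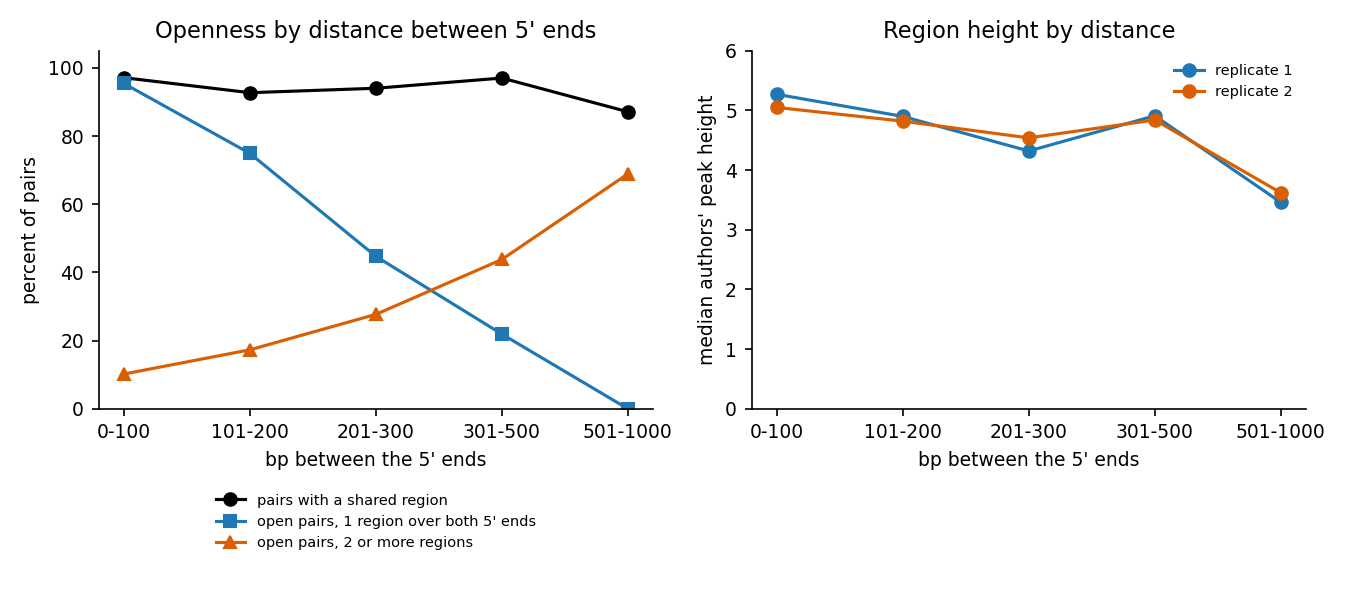
Left, percent of 755 pairs with a shared region, and of open pairs the percent with 1 region over both 5′ ends and with 2 or more regions, by bp between the 5′ ends. Right, median authors' peak height of the regions in each library for the same classes. The share of pairs with 1 region over both ends falls from 95.4% to 0%, and the widest class has the lowest median height in both libraries.

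The tallest region of a pair usually sat between the genes. Its centre lay between the 5′ ends at 462 open pairs (64.7%), on the minus-strand gene's side at 126 and on the plus-strand gene's side at 126. The median offset from the midpoint was -1 bp, and 72.4% of centres were within 100 bp of the midpoint. At the 148 pairs with 2 regions, these were a median of 120 bp apart, the taller was a median of 2.07 times the height of the lower, and the left one was the taller at 74. The 5′ ends of such pairs were a median of 248 bp apart, against 104 bp for pairs with a single region. As sides were set only by the strand of the genome, the equal counts and the small median offset do not show that single pairs are even.

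The tallest pair region in both libraries was that of Hjurp, the chaperone that loads the centromeric histone CENP-A, and Trpm8, a cold-sensing ion channel, on chromosome 1. It measured 20.5 in replicate 1 and 23.6 in replicate 2 (mean 22.0 ± 2.19 SD, n = 2), rank 11 among all shared regions. The next was Fbh1, a DNA helicase, with Ankrd16 at 14.3 and 14.6, whose span with 2 NFY matches is printed above. Fam53a/Gm9903 stood at 13.6 and 11.3. Dcaf6, a receptor of a ubiquitin ligase, and Mpc2, a subunit of the mitochondrial pyruvate carrier, stood at 13.5 and 11.1. A further 5 of the 10 tallest had heights from 10.6 to 11.9 in replicate 1 and from 10.1 to 12.2 in replicate 2. They were Pdhx/Apip, Dnajb4/Fubp1, Med22/Rpl7a, Apaf1/Ikbip and Senp8/Myo9a. Pdhx is a component of the pyruvate dehydrogenase complex, Apaf1 the core of the apoptosome and Rpl7a a ribosomal protein. The tallest region was centred between the 5′ ends in each of these 9 named pairs. Gtf3c1, a subunit of the RNA polymerase III factor TFIIIC, with D430042O09Rik stood at 11.0 and 10.3 and was picked for its CRE match after its values were seen.

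At the low end, the region of Nr2e1, a nuclear receptor of neural stem cells, and Ostm1 measured 0.451 and 0.525 (0.488 ± 0.0521 SD, n = 2). Smc1b, a cohesin subunit of meiosis, with Ribc2 stood at 0.632 and 0.600, and Sox6/1110004F10Rik at 0.632 and 0.660. Col4a4/Col4a3, the chains of basement membrane collagen IV, stood at 0.733 and 0.630. Ddx25, a testis RNA helicase, with Pus3 stood at 0.892 and 0.547. Each of these was below the 10th percentile of pair regions in both libraries, and Col4a4/Col4a3 still held 5 and 6 footprints.

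Of the well-known pairs other than Col4a4/Col4a3, 4 met the distance rule, all above the 10th percentile of pair regions in both libraries. Atm, the kinase of the DNA double-strand break response, and Npat, a regulator of histone genes, measured 8.67 and 7.34 (8.0 ± 0.935 SD, n = 2). Mcm4, of the replicative helicase, and Prkdc, of end joining, measured 5.77 and 6.15. Mrps12, of the mitochondrial ribosome, and Sars2, the mitochondrial seryl-tRNA synthetase, measured 5.82 and 4.82, with the region beginning inside Sars2 and leaving the span printed above outside it. Brca1/Nbr1 had 2 regions, of which the taller measured 3.67 and 4.28. It covered the Brca1 5′ end and the first part of the span.

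At the extremes of distance, Nsa2 and Gfm2 started at the same base, and their region measured 2.61 and 2.71. Bag4/Lsm1 and Slc7a6os/Prmt7, 1 bp apart, measured 7.65 and 6.22, and 7.23 and 6.46. Dhrs1/Nop9 and Bag5/Apopt1, 3 and 4 bp apart, both averaged 4.34 over the libraries. Each of these 5 pairs had a single region over both ends. The widest pairs included Btf3l4/Txndc12 (987 bp), Asphd1/Sez6l2, Zfyve26/Rad51b and Smim7/Tmem38a, and none of these 4 had a region over both ends. The highest of them, Smim7/Tmem38a, had 3 regions and measured 6.34 and 7.74.

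Width and footprints picked out other pairs than height. The widest region, at Ppp1r3d/Fam217b, was 1460 bp long but measured only 1.24 and 0.937, and Sobp/9030612E09Rik followed with 1322 bp at 1.35 and 1.13. Tshz1/Zadh2 and Zbtb25/Zbtb1 had regions of 940 bp and Zfp672/Sh3bp5l one of 860 bp, all under 4 in both libraries. Most footprints over both libraries lay in 2 regions with the same total. That of Aldh6a1, an enzyme of valine breakdown, and Lin52, of the DREAM complex, held 14 in each library, and that of Zfp672/Sh3bp5l held 13 and 15. Pole3/4933430I17Rik held 14 and 12, Mms19/Ubtd1 and Chpf/Tmem198 13 and 12, and Phtf2/Tmem60 12 and 13.

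Genes were counted by lists that together hold only some of the pair genes. DNA repair genes were often in pairs, 27 of 80 matched genes (33.8%) against 6.79% of all protein-coding genes. They fell in 28 pairs, of which 26 were open, with heights from 1.32 to 11.0 in replicate 1. Lig4/Abhd13, with the ligase of end joining, stood highest in replicate 1 (11.0 and 7.83). Xpc/Lsm3 and Palb2/Dctn5 were also above 6.5 in both libraries. Mospd2/Fancb was the lowest open pair of the list in both (1.32 and 2.29), and Pinlyp/Xrcc1 and Rad51c/Tex14 had no shared region.

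Mitochondrial genes were also counted. Of 78 genes of the mitochondrial ribosome, 18 (23.1%) were in pairs and all 18 were open. Mrpl49/Fau was the tallest in replicate 1 (9.19 and 8.08), Klc4/Mrpl2 in replicate 2 (8.74 and 8.38), and Eme2/Mrps34 the lowest in both (2.55 and 2.68). Of 86 oxidative phosphorylation genes, 19 (22.1%) were in pairs and 18 were open. Rps28/Ndufa7, which joins a cytosolic ribosomal protein to a subunit of complex I, stood at 9.11 and 8.07. Ndufa8/Morn5 stood at 8.74 and 7.60, and Sdha/Ccdc127, with a subunit of complex II, at 6.10 and 5.18. Ndufa5/Asb15 had no shared region. Cytosolic ribosome genes were in pairs less often by count, 8 of 82 (9.76%), and 7 were open.

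Further lists were heat shock and chaperonin genes, with 13 of 81 (16%) in pairs, the proteasome with 6 of 39 (15.4%), aminoacyl-tRNA synthetases with 5 of 37 (13.5%), and zinc finger proteins with 20 of 365 (5.48%). All members of the first 3 of these lists that were in pairs were open. Of the zinc finger proteins, 19 were open. Among all 1489 pair genes 1408 were in an open pair, so being open does not set these lists apart. Of the 6 collagen IV genes 2 (33.3%) were in a pair, and of 1093 olfactory receptor genes none. Over the open genes of a list the median of the mean heights was 5.60 for the mitochondrial ribosome, 5.20 for oxidative phosphorylation and 4.28 for the cytosolic ribosome, against 5.32 for all open pair genes. For DNA repair it was 5.25, while the medians of single libraries were 5.42 and 5.68 against 5.38 and 5.29 for all, so the order turns with how the libraries are joined.

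The clustered histone genes stood apart in level. Of 68 genes 27 (39.7%) were in pairs, 13 of the 14 pairs joined histone genes on both sides, and 11 pairs were open. Their heights ran from 0.637 to 3.37 in replicate 1 and from 0.937 to 4.18 in replicate 2, and the median over open genes was 1.40 on the mean of both libraries. Hist2h2ac/Hist2h2be was the tallest with 3.37 and 4.18, followed by Hist1h2ac/Hist1h2bc with 2.28 and 2.53. Hist1h2ak/Hist1h2bn was the lowest in replicate 1, with 0.637 and 1.03. Hist1h2ap/Hist1h2br, Hist1h2ba/Hist1h2aa and Hist1h2bq/Hist1h2ao had no shared region. These genes have near-identical copies, reads of which an aligner may not place, and the part of this in their heights was not tested.

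**Figure D4:**
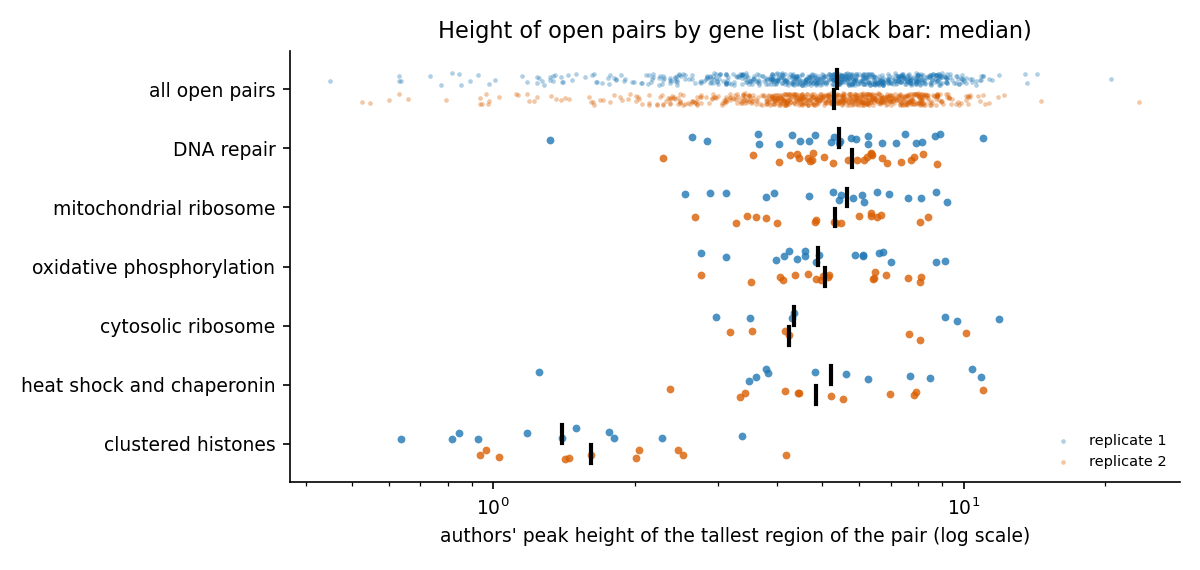
Authors' peak height (log scale) of the tallest region of each open pair, for all 714 open pairs and for pairs with a gene of 6 lists, in replicate 1 (blue) and replicate 2 (orange). Points are pairs, spread vertically at random within a row, and black bars are medians. Clustered histone pairs lie between 0.637 and 4.18, and the other lists overlap the range of all pairs.

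Genes of the adrenal's own functions were in 5 pairs. Of 29 genes of cholesterol synthesis and uptake 3 (10.3%) were in pairs, of 31 steroidogenesis genes 2 (6.45%), and of 25 chromaffin genes none, against 6.79% of all protein-coding genes. Dhcr7, the reductase of the last step of cholesterol synthesis, with Nadsyn1, an NAD synthetase, measured 8.05 and 8.82 (8.43 ± 0.545 SD, n = 2). Mvk, the mevalonate kinase, with Mmab, which makes the cofactor form of vitamin B12, measured 7.89 and 7.30 (7.60 ± 0.414 SD). The Mmab/Mvk region was centred on the Mmab side and ended before the NFY match that lay under a footprint of both libraries. Both pairs were above the pair median in each library, whereas Nsdhl, a sterol dehydrogenase, with Cetn2 was below it at 1.87 and 1.69. Npc2, which moves cholesterol out of lysosomes, with Isca2 measured 5.16 and 4.85. Inha, the inhibin alpha subunit, with Obsl1 measured 1.34 and 0.975, with the region on the Obsl1 side.

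Letters of NRF1, NFY, ETS and YY1 were found more often at pairs than at single promoters. In 300 bp windows at the region centres, NRF1 letters were found in 26.7% of pair regions, 17.5% of unpaired promoter regions and 2.87% of other shared regions. For NFY the shares were 28.9%, 21% and 10.6%, for ETS 11.9%, 6.97% and 0.840%, and for YY1 5.91%, 3.15% and 0.508%. A window at a pair can hold the starts of 2 genes, and shares per start were not counted. In every quartile of the CpG ratio the share of each of these factors was higher at pairs, by differing amounts. For NRF1 it was 22.4% against 21.3% in quartile 3 and 40.6% against 28.9% in quartile 4. SP/KLF letters did not separate pairs from single promoters (22.4% against 23.3%, and 4.61% elsewhere). CRE letters were in 4.17%, 3.38% and 0.767%, ZBTB33 letters in 2.90%, 1.85% and 0.176%, and ZNF143 letters in 1.04%, 0.499% and 0.122%.

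Letters of AP-1, CTCF, NR5A1 and TATA were rarer at pairs than in other shared regions. AP-1 letters were in 2.90% of pair regions, 3.83% of unpaired promoter regions and 14.2% of other shared regions. CTCF letters were in 0.232%, 1.15% and 10.0%. NR5A1, the nuclear receptor that drives steroidogenic genes, had its letters in 1 of 863 pair regions (0.116%), in 0.326% of unpaired promoter regions and in 1.26% of other regions. That pair region measured 2.25 and 2.87, so it was not the tallest region of Nadsyn1/Dhcr7, whose span is printed above. TATA letters were in 2.32%, 2.66% and 5.12%. E-box letters went the other way, with 10.2% of pair regions, 10.0% of unpaired promoter regions and 6.34% of other regions.

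Matches lay under a footprint of both libraries to a degree that differed among factors. A region was counted when any of its matches overlapped a footprint of each library by at least 1 bp. At pair regions with the letters this held for 94.4% with CRE, 82.9% with SP/KLF, 74.8% with NRF1, 56.3% with ETS, 39.2% with YY1 and 35.7% with NFY. At unpaired promoter regions the shares were 88.2%, 73.2%, 65.3%, 51.4%, 39.2% and 33.7%. The order of these factors was thus the same in both sets. The share for other stretches of like length was not measured, and footprints covered 29.2% and 32.7% of positions just beside the pair midpoint. How far the shares exceed such a background is therefore not known, and they do not measure binding.

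Pair regions with these letters were taller. Regions with NRF1 letters had medians of 5.75 and 5.39 in replicates 1 and 2 against 4.39 and 4.48 without, and the 36 with CRE letters 6.42 and 6.62 against 4.72 and 4.66. Counting NRF1, NFY, ETS, YY1 and SP/KLF, the 258 regions with none of the 5 had medians of 3.36 and 3.57. The 417 with 1 had 5.0 and 4.92, the 158 with 2 had 5.59 and 5.55, and the 30 with 3 or more had 6.33 and 6.07. CpG content, which also moves with height, was not held constant in this count.

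Footprints and letters were unevenly placed within the pair. In the 463 open pairs whose 5′ ends were 50 to 300 bp apart, the span between the ends was set beside the first 200 bp of either gene. Footprint centres numbered 19.8 and 20.9 per kb of span in replicates 1 and 2, against 9.18 and 8.91 per kb in the minus-strand gene and 10.8 and 10.3 in the plus-strand gene. CpG density was nearly even, with 86.0 per kb between the ends and 81.7 and 82.6 in the genes. NFY letters were concentrated between the ends, 3.41 per kb against 0.387 and 0.355, as in the printed Fbh1/Ankrd16 and Mmab/Mvk spans. SP/KLF letters gave 2.05 against 0.301 and 0.344, and NRF1 letters 1.60 against 0.591 and 0.655. At unpaired promoters 78.9% of NFY, 73.5% of SP/KLF and 60.1% of NRF1 matches also lay upstream of the 5′ end. At pair regions 74.6%, 63.5% and 46.2% lay upstream of the nearer gene's 5′ end, so upstream placement is not particular to pairs.

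YY1 letters went the other way, with 3 matches between the ends, 18 in the first 200 bp of the minus-strand genes and 24 in those of the plus-strand genes. Per kb this was 0.047 against 0.193 and 0.258. Of 53 YY1 matches in the windows at pair regions 44 (83.0%) read along the nearer gene, and the 53 lay at a median of 38 bp downstream of its 5′ end. At unpaired promoters 80.6% of 356 read along the gene, and the median position was 33 bp downstream. Along the gene and within 200 bp downstream of its 5′ end, 16 matches in 15 pairs lay under a footprint of both libraries. Those of 3 of the taller such pairs are printed along the gene, with the YY1 letters in capitals.
Pdhx/Apip, in Pdhx (chr2:103073436-103073460, minus strand): aagccgggAAGATGGCGgcctcctg
Slc39a7/Rxrb, in Rxrb (chr17:34031809-34031833, plus strand): tctgtacaAAGATGGCGgccgcgcc
Pafah1b2/Sik3, in Sik3 (chr9:46012847-46012871, plus strand): tgcacaacAAGATGGCGgcggcggc
They begin 61 bp into Pdhx, 5 bp into Rxrb and 35 bp into Sik3, downstream of the 5′ end. The Slc39a7/Rxrb region measured 9.2 and 7.42, and that of Pafah1b2/Sik3 7.50 and 6.96. The stretches printed in Pdhx and Sik3 lay outside these pairs' tallest regions, and that in Rxrb crossed the end of its region.

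**Figure D5:**
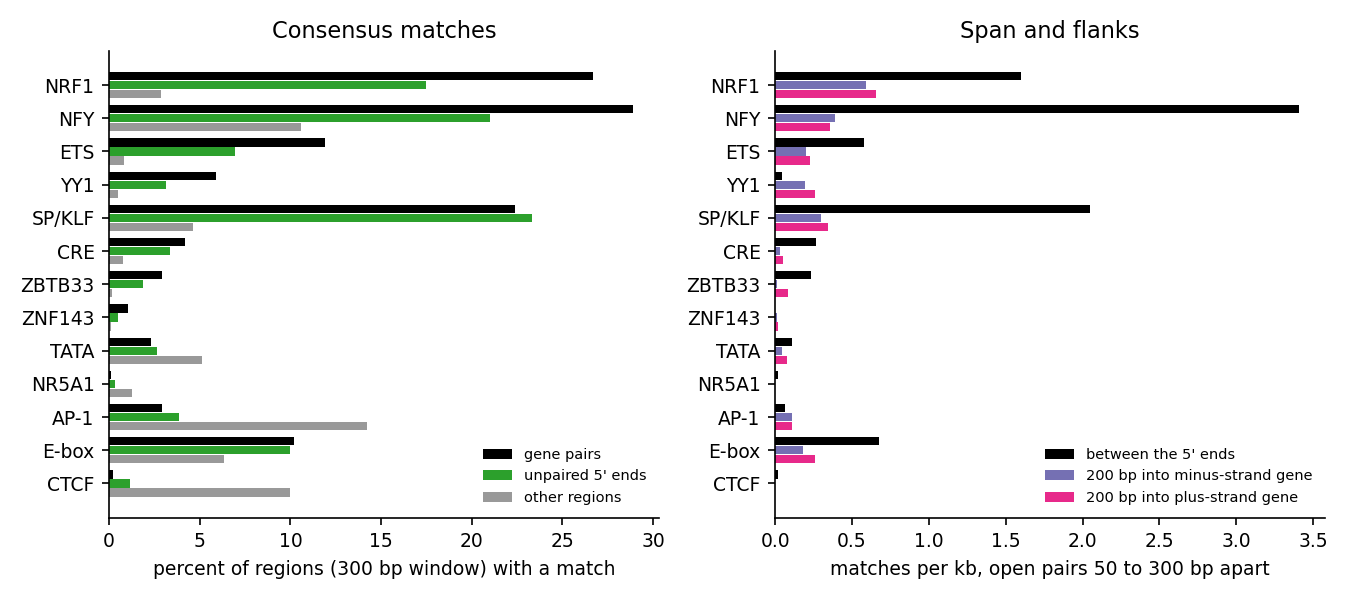
Left, percent of 863 pair regions, 11032 unpaired promoter regions and 53326 other shared regions whose 300 bp window holds each consensus. Right, matches per kb between the 5′ ends and in the first 200 bp of either gene, for 463 open pairs 50 to 300 bp apart. NFY, SP/KLF and NRF1 have their longest bars between the 5′ ends, and YY1 has its longer bars inside the genes.

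The replicates gave nearly the same heights at pairs. Replicate 1 was at least 1.5-fold above replicate 2 at 20 of 863 pair regions (2.32%), against 3.26% of all shared regions. It was at least 1.5-fold below at 25 (2.90%), against 17% of all shared regions. The pair share is near the background for the first direction and under it for the second. Other regions were lower and replicate 1 had fewer peaks, so regions with mean heights of 1.73 to 8.06, the 10th to 90th percentiles at pairs, were also set side by side, a choice made after seeing the data. Replicate 1 was then below at 2.47% of 689 pair regions, 2.19% of 7135 unpaired promoter regions and 8.53% of 13825 other regions. Across pair regions the log2 heights of the libraries had a Pearson correlation of 0.945, a description over 863 regions of the same 2 libraries.

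Pairs with the largest differences between replicates were named separately for each direction, so their equal number on both sides was set by that rule. Tada2b/Ccdc96 measured 7.79 in replicate 1 and 4.21 in replicate 2, a log2 difference of 0.89. Lamtor2/Ubqln4 measured 7.91 and 4.87, Kctd19/Lrrc36 1.28 and 0.795, and Ddx25/Pus3 0.892 and 0.547. Sgce/Peg10, which holds the paternally expressed imprinted gene Peg10, measured 3.12 and 1.95. In the other direction, Sirt1/Dnajc12 measured 1.25 and 2.38 and Cep44/Fbxo8 1.77 and 3.19. Hepacam2/Vps50 measured 2.69 and 4.81, Hist1h2bl/Hist1h2ai 0.818 and 1.45, and Mospd2/Fancb 1.32 and 2.29. With 2 libraries, a difference at 1 region cannot be set against a spread.

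No shared region was found at 41 pairs. Of these, 32 had no peak listed in either library within the span and its margins, 6 had one in replicate 1 alone and 3 in replicate 2 alone. At 30 of them no position of the span was listed at an FDR under 0.05 in either library, while at 660 of the 714 open pairs the whole span was listed in both. Their midpoints were poorer in CpG, with a median observed to expected ratio of 0.238 over 300 bp against 0.861 at open pairs. The closest of them were Best1/Rab3il1, 36 bp apart, Rnf151/Rps2, 53 bp apart, 4930430F08Rik/1700017N19Rik, Dgcr2/Tssk2, Il11/Tmem190, Ccnt1/4930415O20Rik, Patl2/Terb2, Zfp558/Mbd3l1, Fam217a/4933417A18Rik and Nmur1/Tex44. None of these 10 had a peak listed in either library. They include genes known from testis or meiosis, such as the kinase gene Tssk2 and Terb2.

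At 17 of the 41 pairs, 1 of the genes had another annotated protein-coding start within 200 bp of a shared region. Rps2, a ribosomal protein gene, is an example: its outermost 5′ end faces Rnf151 and had no peak listed, while another of its starts was at a shared region. The gene 5′ end used by the rule was therefore not the open start of that gene. Others of the 17 include Rab3il1, Dgcr2, Xrcc1, Rad51c, Ndufa5 and Trim28.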

How the data were processed

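DNase-seq libraries of adrenal gland (1 group, biological replicates 1 and 2) were used. The file index text says that the authors derived peaks, footprints and FDR per library from alignments to mm10. Neither the aligner nor the callers are named in those sources. The peak height deposited by the authors is a signal whose normalization is not described in the files. Comparisons of height between libraries assume a common scale. In both libraries 100% of heights were within 0.05 of whole multiples of 1 step. The footprint score deposited by the authors was 0.01 in every row and was not used. The FDR (a q-value) in the deposited files is listed only under 0.05.

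The longer peak list of each library was used. Overlapping peaks (at least 1 bp) were merged, and regions with a peak of both libraries were kept, each with its highest peak per library. Gene 5′ ends came from GENCODE vM21 and sequences from GRCm38, the assembly mm10 names, so alleles of the hybrid mice were not examined. The 755 pairs have 753 distinct spans, and 20 pairs have another gene 5′ end in the span. Python 3 scripts used pysam 0.24.0 for sequences, pandas 2.3.3 and numpy 2.4.6. Interval and pair finding were tested on simulated data. Pairs named were the tallest, lowest, widest, closest, farthest, richest in footprints, most different between replicates, well known, or with a gene of the steroidogenesis, cholesterol or chromaffin lists, and those without a region by distance. Some pairs that these rules name are not reported here. Pairs named from other lists were chosen after their values were seen. Members and lists were chosen with earlier results of these data known. Alternatives were another peak list, each library alone, other margins and distances, overlapping pairs, transcript starts, summed heights, CpG quartiles and 200 bp windows. Spread between libraries is given as SD (n = 2), which may be technical. An absent peak is one not listed.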

Additional observations from a re-analysis of the deposited data

How the results depend on the processing

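Only the log2 ratio of the pair to the unpaired median height had a direction that could change, and it kept it under the alternatives run. Over all results, 21 of 61 values moved by no more than the SD between libraries, or stayed within the 95% binomial interval for shares of regions. That interval treats regions as independent, and its alternatives use the same regions or a part of them. It is a tolerance only and does not measure the spread between libraries. Pairs with a shared region were 94.6% as reported, 93.9% with the shorter peak list, 92.7% with no margin, 94.8% with 500 bp margins, 95.3% for ends at most 500 bp apart and 92.8% with the closest transcript starts. Regions of a single library gave 95 to 95.2%. The median height, 4.76 over both libraries, was 4.84, 5.0, 4.24, 4.89 and 4.61 in the same order, 4.49 with overlapping pairs included, 4.87 with summed peak heights and 4.60 to 4.70 in single libraries. The log2 ratio of the pair to the unpaired median, 0.561, was 0.428, 0.476, 0.708, 0.600 and 0.515 in that order, 0.477 with overlapping pairs, 0.523 with summed heights and 0.598 to 0.670 in single libraries. For the value with transcript starts, unpaired regions were still taken at gene 5′ ends, so its 2 sides are not fully alike. Within CpG quartiles the log2 ratio was 0.816, 0.465, 0.30 and 0.365 from lowest to highest, so its size depended on CpG content while its direction did not. Pairs with both ends in 1 region, 68.5% of open pairs, were 74.9% for ends at most 500 bp apart, 51.4% with overlapping pairs, 66.2% with transcript starts and 60.2 to 62.3% in single libraries, where the median width was 240 bp in place of 280 bp. The median number of footprints was 5 in every setting. With 200 bp windows NRF1 letters were in 22.9% of pair regions, NFY in 25.3%, YY1 in 4.06% and SP/KLF in 19.2%. These windows were counted at pair regions only, so the comparison with unpaired promoter regions was not repeated. No paired analysis was possible because the result comes from no test and the 2 libraries form 1 group. Depth limits the low regions most: the lowest pair region stood 63 steps high in replicate 1 and 59 in replicate 2.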

Other observations

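Pairs whose 5′ ends overlap, with the plus-strand gene starting up to 1 kb before the minus-strand gene's 5′ end, numbered 445, and 419 (94.2%) were open. Their 5′ ends overlapped by a median of 323 bp, and their own 557 regions had median heights of 4.03 in replicate 1 and 4.21 in replicate 2. Hspd1/Hspe1, the mitochondrial chaperonin and its co-chaperonin, measured 10.9 and 9.68. Psmb9/Tap1, of antigen processing, measured 10.9 and 9.94. Ppat/Paics, of purine synthesis, measured 6.20 and 7.28, and Col4a1/Col4a2 4.22 and 3.21. Surf1/Surf2 measured 2.52 and 2.37.

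Head-to-head pairs 1 to 5 kb apart numbered 412. A shared region was found at 77.4% of them, none over both 5′ ends, with median heights of 3.16 and 3.32. Col4a6/Col4a5, 1309 bp apart on the X chromosome, measured 0.404 and 0.487. Of the collagen IV pairs, Col4a1/Col4a2 was the tallest in both libraries.

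By number, chromosome 11 held more of the 755 pairs than any other chromosome (68 pairs, among 1639 protein-coding genes). Chromosome 8 held 52 pairs among 1040 genes, more for its number of genes, and the Y chromosome held none.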
